A study of Mus musculus with 6 samples.

Results

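Imprinted genes are transcribed mainly from the copy inherited from a given parent, and many of them set the growth of the fetus and newborn. The 10 growth genes described here were chosen by name and found through their Ensembl identifiers: H19, Igf2, Igf2r, Dlk1, Cdkn1c, Peg3, Plagl1, Mest, Grb10 and Ndn, out of 39179 genes counted. Of these 10, 9 passed the filter of a minimum of 1 CPM (the usual scaling of a count by the library's counts on genes) in no fewer than 3 libraries, as did 14723 genes in all. RNA came from the sensory epithelium of the cochlea, the hearing organ, and of the vestibule, the balance organ, of wild-type C57Bl/6J newborns at postnatal day 0, males and females pooled. Each tissue has 3 libraries, made with a stranded mRNA kit from 450 ng of RNA. The material is described as 20 organs from 10 mice, and the study's methods name 20 inner ears of 10 mice as the source of both tissues. The tissues may therefore share animals, but the test treated them as unpaired. The sources do not say whether the 3 libraries of a tissue came from separate pools, so p-values measure only the spread between these libraries, which may be technical. Alleles were not measured: the strain is inbred, and the parental origin given for a gene below is background.

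Opposing roles are a known feature of this group. The paternally expressed Igf2 encodes a fetal growth factor, which acts through the IGF1 and insulin receptors, and the maternally expressed Igf2r encodes a receptor that binds this ligand and takes it to the lysosome for breakdown. H19, a maternally expressed non-coding RNA, shares enhancers with its neighbour Igf2, and an insulator that is methylated on the paternal copy decides which of them the enhancers serve. Cdkn1c (p57Kip2, a brake on the cell cycle) and Grb10 (an adaptor that dampens insulin and IGF receptor signalling) are maternal growth restrainers, whereas Peg3, Plagl1, Mest, Dlk1 and Ndn are expressed from the paternal copy. In the developing inner ear, inhibitors of the Cdkn1 family accompany the exit of sensory progenitors from the cell cycle.

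The coordinates of the genes on GRCm38 (GENCODE vM21) show how some of them share a cluster. H19 (ENSMUSG00000000031, a lincRNA) lies on the minus strand of chromosome 7 at 142575529 to 142578143. Igf2 (ENSMUSG00000048583) follows on the same strand at 142650766 to 142666816, and Cdkn1c (ENSMUSG00000037664) at 143458339 to 143461050. Peg3 (ENSMUSG00000002265, 6703892 to 6730431, minus) and Ndn (ENSMUSG00000033585, 62346569 to 62350262, plus) lie in other clusters of chromosome 7. Igf2r (ENSMUSG00000023830) is on chromosome 17 at 12682406 to 12769664 (minus) and Dlk1 (ENSMUSG00000040856) on chromosome 12 at 109452823 to 109463336 (plus). Plagl1 (ENSMUSG00000019817) is on chromosome 10 at 13060504 to 13131694 (plus), Mest (ENSMUSG00000051855) on chromosome 6 at 30723547 to 30748465 (plus) and Grb10 (ENSMUSG00000020176) on chromosome 11 at 11930508 to 12038683 (minus). The counts cover whole genes, so transcripts from alternative starts were counted together.

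Upstream sequence is shown for Peg3, which had the largest tissue difference of the 9 genes tested, and for Grb10. A gene count cannot separate the 2 starts that RefSeq gives for Grb10, nor the several starts of Igf2 and Mest. Each run holds the 250 bases before an annotated start, read 5′ to 3′ on the gene's strand from RefSeq on GRCm38.p6. RefSeq windows were found for 8 of the 10 genes, 14 in all, and none for H19 and Cdkn1c. The Peg3 window is chr7:6730420-6730669 (minus), and the Grb10 windows are chr11:12037421-12037670 and chr11:12027972-12028221 (both minus). Capitals in the Peg3 window mark 2 palindromes, GGGGCCCC, whose first base is at -201, and TGACGTCA, the full cAMP response element, whose first base is at -178. They do not overlap, and a palindrome reads alike on both strands.
Peg3: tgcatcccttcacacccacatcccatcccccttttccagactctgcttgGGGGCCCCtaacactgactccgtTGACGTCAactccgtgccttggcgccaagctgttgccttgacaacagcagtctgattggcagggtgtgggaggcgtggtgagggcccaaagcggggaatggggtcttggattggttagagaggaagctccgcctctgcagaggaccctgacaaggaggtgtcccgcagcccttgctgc
Grb10, first start: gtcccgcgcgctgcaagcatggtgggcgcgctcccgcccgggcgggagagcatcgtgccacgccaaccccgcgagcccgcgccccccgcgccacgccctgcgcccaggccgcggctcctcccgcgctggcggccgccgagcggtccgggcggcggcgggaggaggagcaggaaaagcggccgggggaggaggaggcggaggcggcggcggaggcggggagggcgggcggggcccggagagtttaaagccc
Grb10, second start: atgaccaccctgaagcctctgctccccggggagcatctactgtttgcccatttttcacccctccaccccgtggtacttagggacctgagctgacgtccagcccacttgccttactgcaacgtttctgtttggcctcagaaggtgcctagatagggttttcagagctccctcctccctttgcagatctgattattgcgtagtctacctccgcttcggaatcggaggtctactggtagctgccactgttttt
GGGGCCCC occurred in 0.889% and TGACGTCA in 1.55% of the 32851 mouse windows of this length, and each in 1 of the 14 windows of these genes. Both motifs were picked after the sequence was seen, and a match of letters is only a description. The first Grb10 window held 40 CG dinucleotides and was 81.2% G or C, and the second held 8 and was 54.0%, beside a median of 6 and 52.4% over all windows.

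H19 and Mest also host microRNAs, whose short mature products a library of mRNA does not measure, so the counts below speak of the host transcripts alone. The mature sequences (RefSeq, GRCm38.p6) are shown because each host was counted here without them. miR-675 is cut from the H19 transcript (arms at chr7:142577112-142577133 and chr7:142577078-142577099, minus) and miR-335 lies within Mest (chr6:30741314-30741336 and chr6:30741354-30741375, plus). Capitals mark the seed, bases 2 to 8, and the 4 arms have 4 different seeds.
miR-675-5p: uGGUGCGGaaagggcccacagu
miR-675-3p: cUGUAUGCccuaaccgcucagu
miR-335-5p: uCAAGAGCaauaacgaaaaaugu
miR-335-3p: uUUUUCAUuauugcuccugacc

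Between 24464483 and 33664793 counts fell on genes in each library, so 1 CPM stands for 24.5 to 33.7 counts, and the 10 genes together took 0.303% to 0.425% of them. Supporting cell markers summed to 9299 to 12283 CPM in the cochlea and 2169 to 2316 CPM in the vestibule, and hair cell markers to 702 to 860 CPM and 1142 to 1434 CPM, with none of these markers at 0. Of the 10 hair cell markers, 5 were called up in the vestibule and 1 up in the cochlea. Over all genes tested, 15.8% were called up in the vestibule and 11.6% up in the cochlea, and all marker counts here stand beside these shares. Of the 10 supporting cell markers, 8 were called up in the cochlea, but Tecta, at a mean of 8489 and 497 CPM, made up most of the cochlear sum, and Epcam was up in the vestibule. Mesenchyme markers summed to 5455 to 6085 CPM in the cochlea and 8197 to 9463 CPM in the vestibule. Of these 12, 5 were called up in the vestibule (among them Col1a2, beside 15.8% of all genes) and 2 up in the cochlea (among them Lum, beside 11.6%). Their median log2 fold change was only 0.13. Schwann cell markers (508 to 675 and 1099 to 1484 CPM) and endothelial markers (196 to 269 and 436 to 624 CPM) were also detected in both tissues. Of 8 endothelial markers, 6 were up in the vestibule, but Emcn, a large part of the cochlear sum, was up in the cochlea (log2 fold change -1.80). Cartilage and bone markers overlapped in their sums (13443 to 22789 and 16566 to 21198 CPM), with 7 of 12 tested up in the vestibule and 1 up in the cochlea. All 7 macrophage markers (88.9 to 105 and 335 to 367 CPM) and all 6 melanocyte markers (40.6 to 65.1 and 295 to 352 CPM) were called up in the vestibule, as were 5 of 7 markers of dark cells and stria (650 to 814 and 1216 to 1323 CPM). Among the markers counted as called, Hes5, Tbx15, Comp, Ibsp, Aif1, Tyrp1 and Mlana, named after their values were seen, passed the filter only through the tissue where they were high. Skeletal muscle markers set cochlea 3 apart, at 364 CPM beside 15.8 to 39.1 CPM in the other 5 libraries. The share of listed counts on no gene was 4.3%, 4.7% and 7.5% in cochlea 1, 2 and 3 and 6.8%, 7.0% and 5.8% in vestibule 1, 2 and 3. The part of these marker sums in the tissue differences below was not tested. In such bulk samples, fewer cells of a type and less RNA per cell cannot be told apart.

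Of the 9 genes tested, 5 were differentially expressed (DE) between the tissues. Peg3 and Plagl1 were up-regulated in the vestibule, and Igf2, Cdkn1c and Grb10 in the cochlea. The levels of H19, Igf2r, Mest and Ndn did not pass the test, and Dlk1 was listed at 0 throughout. Counts were compared with edgeR (quasi-likelihood, p-values adjusted after Benjamini and Hochberg over all 14723 genes, FDR 0.05), by which 27.4% of all genes were called, 15.8% up in the vestibule and 11.6% up in the cochlea. The median log2 fold change, vestibule minus cochlea, was -0.25 over the 9 genes and 0.00 over all genes, whose interquartile range was -0.28 to 0.39. The libraries of the tissues did not overlap in CPM for 6 of the 9, beside 41.8% of all genes. Leaving out 1 library moved the 5 calls over a range of 2 to 6: 2 were left without cochlea 2 or without vestibule 2 and 3 without vestibule 1, and Ndn joined without cochlea 3.

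**Figure D1:**
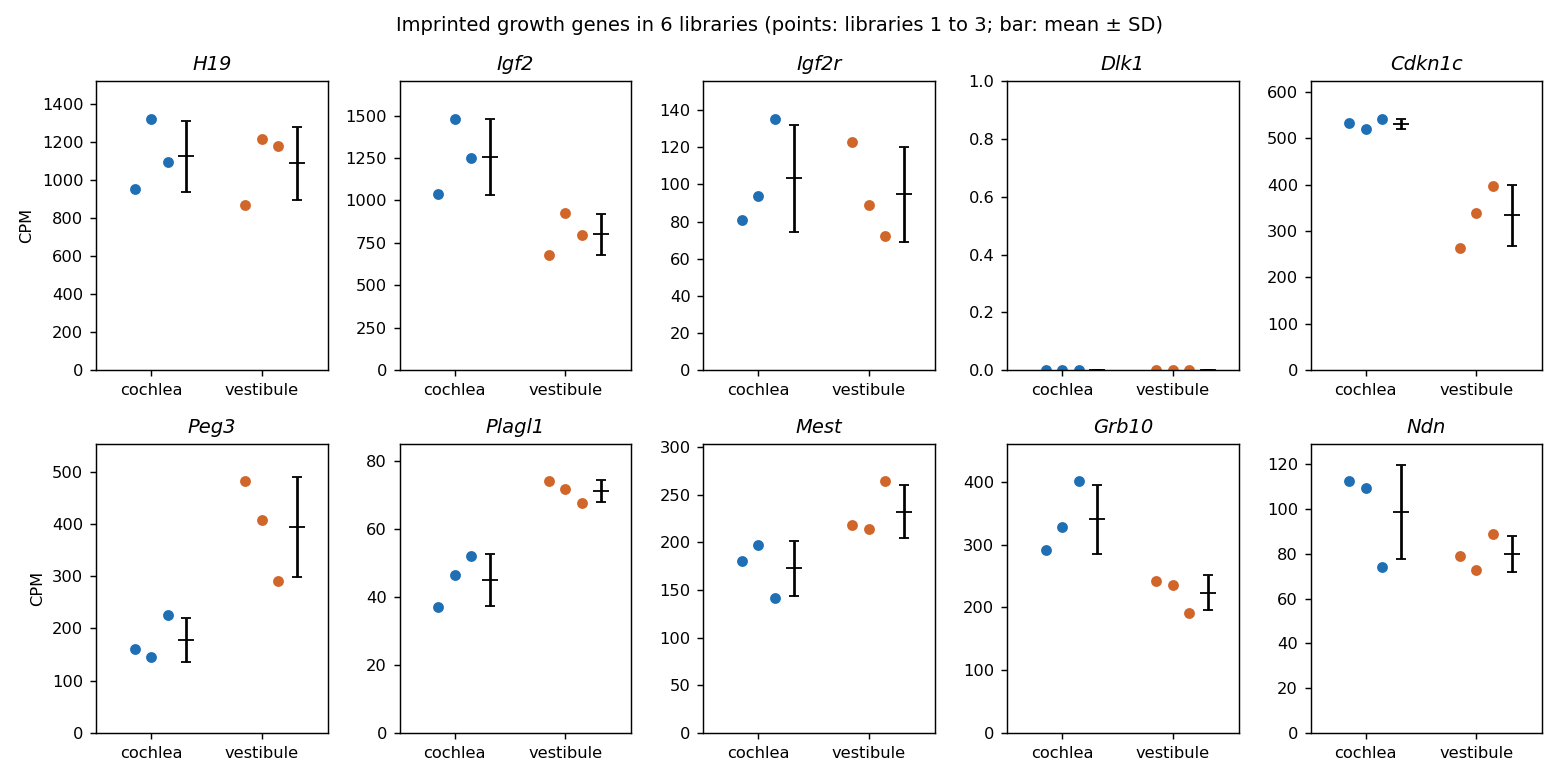
CPM (y axis, from 0, its own scale in each panel) of the 10 genes in the 3 cochlear (blue) and 3 vestibular (orange) libraries, with the mean ± SD of each tissue beside the points. The points of Igf2, Cdkn1c, Peg3, Plagl1, Mest and Grb10 do not overlap between the tissues, those of H19, Igf2r and Ndn do, and Dlk1 is at 0.

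Igf2, the ligand, was up-regulated in the cochlea. It reached 1039, 1481 and 1248 CPM in cochlea 1, 2 and 3 and 682, 926 and 794 CPM in vestibule 1, 2 and 3. All cochlear libraries lay above all vestibular ones. The log2 fold change was -0.77 (SE 0.21, adjusted p = 0.0231 by edgeR's quasi-likelihood test), or 1.71-fold higher in the cochlea. The call stood in 3 of the 6 fits with 1 library left out, and in the others the adjusted p was 0.0891 without cochlea 2, 0.0777 without vestibule 1 and 0.0550 without vestibule 2, with log2 fold changes between -0.86 and -0.61 in these 3. Igf2os, a transcript antisense to Igf2, had 1.84 to 4.93 CPM, and the strand setting of the counting is not given in the sources used here, so reads of the 2 genes may not be fully separate.

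H19, the non-coding neighbour of Igf2, did not pass the test. Its level was 957, 1324 and 1097 CPM in the cochlear libraries and 867, 1215 and 1182 CPM in the vestibular ones. The tissues overlapped almost wholly, with a log2 fold change of -0.17 (SE 0.22, adjusted p = 0.606 by edgeR's quasi-likelihood test), which turned to 0.014 (adjusted p = 0.973) without vestibule 1. Within each tissue H19 and Igf2 were lowest in library 1 and highest in library 2.

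The ratio of the 2 counts within a library does not depend on scaling between libraries. H19 stood at 0.921, 0.894 and 0.879 counts per Igf2 count in cochlea 1, 2 and 3 and at 1.27, 1.31 and 1.49 in vestibule 1, 2 and 3. Being a ratio of counts and not of levels per length, it compares the tissues and not the 2 genes, and all cochlear libraries lay below all vestibular ones. The mean log2 ratio was -0.16 ± 0.03 (SD over 3 libraries) for cochlea and 0.44 ± 0.12 for vestibule, a difference of 0.59 (two-sided exact permutation p = 0.1, the smallest that 3 against 3 can give). The ratio was taken up after the values had been seen.

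Igf2r, which clears the ligand, did not pass the test. Its level was 80.6, 93.6 and 135 CPM in the cochlea and 123, 88.8 and 72.5 CPM in the vestibule. The tissues overlapped (log2 fold change -0.25, SE 0.22, adjusted p = 0.440 by edgeR's quasi-likelihood test), and the spread within a tissue, a coefficient of variation of 27.7% and 27.0%, was the widest of the 9 genes. With 1 library left out, the log2 fold change ranged from -0.43 (without vestibule 1) to -0.03 (without cochlea 3). Igf2 counts were 12.9, 15.8 and 9.22 times those of Igf2r in the cochlear libraries and 5.56, 10.4 and 11.0 times in the vestibular ones, which overlap (exact permutation p = 0.3). Airn, the non-coding RNA antisense to Igf2r, had 6.01 to 10.5 CPM and did not pass the test (log2 fold change -0.31, adjusted p = 0.373).

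The growth restrainers Cdkn1c and Grb10 were both up-regulated in the cochlea. Cdkn1c, the cyclin-dependent kinase inhibitor p57Kip2, had 531, 520 and 542 CPM in cochlea 1, 2 and 3 and 264, 340 and 397 CPM in vestibule 1, 2 and 3. The cochlear libraries lay close together, with a coefficient of variation of 2.09%, and above all vestibular ones, which varied by 20.0%. The log2 fold change was -0.78 (SE 0.19, adjusted p = 0.0139 by edgeR's quasi-likelihood test), a 1.72-fold difference. It no longer passed without cochlea 2 (adjusted p = 0.0516) or without vestibule 2 (0.0681). Of the other inhibitors of cyclin-dependent kinases, 1 of 5 tested was called, beside 27.4% of all genes: Cdkn1b (p27Kip1), also a supporting cell marker, with 116 to 162 CPM in the cochlea and 79.7 to 83.9 CPM in the vestibule (log2 fold change -0.93, adjusted p = 0.00221). Cdkn1a (p21Cip1), named after its values were seen, had 77.0 to 83.1 and 87.4 to 106 CPM and did not pass (log2 fold change 0.14, adjusted p = 0.511).

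Grb10 had 292, 328 and 401 CPM in the cochlear libraries and 243, 236 and 191 CPM in the vestibular ones. The lowest cochlear library was above the highest vestibular one, and the log2 fold change was -0.73 (SE 0.15, adjusted p = 0.00710 by edgeR's quasi-likelihood test), a 1.66-fold difference. This difference passed whichever library was left out, but not with the replicate number as a block (adjusted p = 0.0511 by the same test). Its close relative Grb14, an adaptor of the same family, had 51.9 to 63.4 CPM in the cochlea and 24.95 to 30.3 CPM in the vestibule (log2 fold change -1.16, adjusted p = 0.000379), and was the only one called of the 6 adaptor relatives and partners tested, beside 27.4% of all genes.

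**Figure D2:**
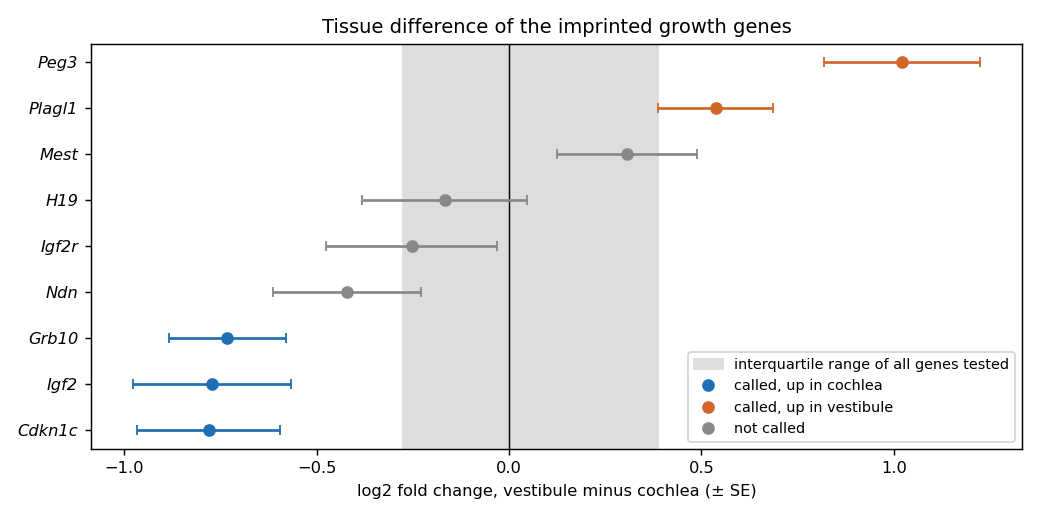
Log2 fold change, vestibule minus cochlea, with its SE (x axis) for the 9 genes tested, coloured by call, over a grey band that is the interquartile range of all 14723 genes, -0.28 to 0.39. The 5 genes called lie outside the band with Ndn, and H19, Igf2r and Mest lie inside it.

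Among the paternally expressed genes other than Igf2, Peg3 showed the largest difference of the group. Peg3 encodes a zinc finger protein with a part in fetal growth and maternal behaviour. It had 161, 146 and 226 CPM in cochlea 1, 2 and 3 and 481, 408 and 292 CPM in vestibule 1, 2 and 3. The tissues did not overlap, and the log2 fold change of 1.02 (SE 0.20, adjusted p = 0.00576 by edgeR's quasi-likelihood test) is a 2.03-fold higher level in the vestibule. It was called under all 16 alternative settings, with log2 fold changes of 0.91 to 1.21. Cochlea 3, the cochlear library with most counts on no gene, was the nearest to the vestibular libraries, and vestibule 3, the vestibular library with fewest, the nearest to the cochlear ones; the part of this share in the result was not tested.

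Plagl1 encodes a zinc finger transcription factor described as a regulator of a network of imprinted genes. Its level was 37.0, 46.4 and 52.1 CPM in the cochlea and 74.1, 72.0 and 67.8 CPM in the vestibule. All vestibular libraries were above all cochlear ones, and the fitted difference of the tissues was 1.45-fold (log2 fold change 0.54, SE 0.15, adjusted p = 0.0277 by edgeR's quasi-likelihood test). The direction held in all 16 alternatives (log2 fold change 0.40 to 0.67), but of the 6 fits with 1 library left out, the call stood only in that without cochlea 3, and the adjusted p was 0.0716 without cochlea 1, 0.0597 without cochlea 2 and 0.0599, 0.0912 and 0.0527 without vestibule 1, 2 and 3. Its relative Plagl2 moved the other way, with 80.4 to 89.6 CPM in the cochlea and 51.2 to 57.9 CPM in the vestibule (log2 fold change -0.75, adjusted p = 0.00181). Plag1, named after its values were seen, had 15.7 to 22.8 and 10.8 to 19.8 CPM and did not pass (log2 fold change -0.46, adjusted p = 0.186).

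Mest, a member of the alpha/beta hydrolase family, had 180, 198 and 141 CPM in the cochlear libraries and 218, 214 and 264 CPM in the vestibular ones. The tissues did not overlap, yet the log2 fold change of 0.31 (SE 0.18, adjusted p = 0.251 by edgeR's quasi-likelihood test) did not pass. Copg2, which overlaps the end of Mest on the other strand, had 92.4 to 108 CPM and did not pass either (log2 fold change -0.24, adjusted p = 0.155).

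Ndn encodes necdin, a MAGE family protein known for holding neurons out of the cell cycle. It had 112, 109 and 74.3 CPM in cochlea 1, 2 and 3 and 78.9, 72.6 and 88.7 CPM in vestibule 1, 2 and 3. Cochlea 3 lay among the vestibular libraries, and the log2 fold change was -0.42 (SE 0.19, adjusted p = 0.145 by edgeR's quasi-likelihood test). Without cochlea 3 it was -0.61 and passed (adjusted p = 0.0167). Neuron markers summed to 673 and 640 CPM in cochlea 1 and 2, 309 CPM in cochlea 3 and 383, 147 and 189 CPM in the vestibule, and their part in the Ndn level was not tested. Of its 7 MAGE relatives, all tested, Maged2 (log2 fold change -0.39), Magee1 (-1.01) and Magee2 (-1.30) were called, all up in the cochlea, beside 11.6% of all genes.

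Dlk1, a membrane protein related to the Notch ligands and known from fetal and stem cells, was listed at 0 in all 6 libraries. A count of 0 allows up to 3 counts, or 0.0891 to 0.123 CPM by library, for counting error only. This 0 is not a measurement of absence: 14408 of the 39179 genes (36.8%) were listed at 0 in all 6 libraries, among them the muscle gene Tnnc2 (named after its values were seen), although other muscle genes were counted. Whether reads of Dlk1 were left unassigned was not tested. Of the 10 Notch ligands, receptors and relatives of Dlk1 tested, 3 were up in each tissue (beside 15.8% of all genes for the vestibule and 11.6% for the cochlea), with the largest changes for Dll1 (1.94), Jag1 (-1.50) and Notch4 (1.37) on the log2 scale. Dlk2, the nearest relative and named after its values were seen, had 15.2 to 24.1 CPM in the cochlea and 36.5 to 40.8 CPM in the vestibule (log2 fold change 0.88, adjusted p = 0.00412 by edgeR's quasi-likelihood test).

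A grouping by the parental copy given above as background, which was not measured in these tissues, was made after the values were seen. The 4 genes named there as maternal, H19, Igf2r, Cdkn1c and Grb10, all had negative log2 fold changes, from -0.78 to -0.17. Of these, 2 were called up in the cochlea (beside 11.6% of all genes), and H19 changed sign without vestibule 1. The 5 paternal genes tested ran from -0.77 for Igf2 to 1.02 for Peg3, with 2 called up in the vestibule and 1 up in the cochlea (beside 15.8% and 11.6%).

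Levels were set side by side across genes only per length, on the authors' log2 RPKM scale (reads per kilobase of gene, scaled to library size). H19 was the highest in both tissues, at 8.88 ± 0.24 (cochlea, SD, n = 3) and 8.83 ± 0.27 (vestibule). It was above 99.4% of the 14693 genes in the authors' values that had counts in all 6 libraries. Cdkn1c followed at 8.11 ± 0.03 and 7.41 ± 0.30, and Igf2 at 7.76 ± 0.26 and 7.12 ± 0.22. Plagl1 was the lowest in the cochlea at 2.62 ± 0.25, and level with Igf2r in the vestibule at 3.29 ± 0.07. Over both tissues it was above 55.8% of the same 14693 genes.

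The order in between differed in part. In the cochlea it ran Ndn (5.88), Mest (5.45), Grb10 (5.22), Peg3 (3.72) and Igf2r (3.42), where the libraries of Ndn and Mest, of Mest and Grb10 and of Peg3 and Igf2r overlapped between libraries. Within each library Ndn was nevertheless above Mest and Peg3 above Igf2r, while Mest was above Grb10 only in cochlea 1 and 2. In the vestibule it ran Mest (5.88), Ndn (5.60), Peg3 (4.86), Grb10 (4.61) and Igf2r (3.29), and the overlapping neighbours were Cdkn1c and Igf2, Peg3 and Grb10, and Igf2r and Plagl1. Within each library Cdkn1c was above Igf2, and Igf2r was above Plagl1 only in vestibule 1. Peg3 stood below Grb10 in every cochlear library, without overlap, and above it within each vestibular library, where the ranges overlapped.

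**Figure D3:**
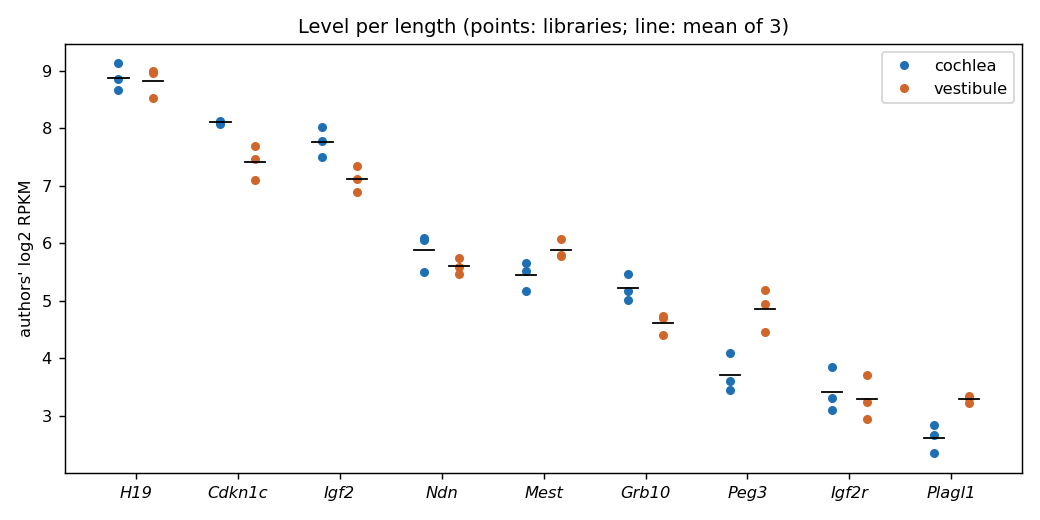
Level per length as the authors' log2 RPKM (y axis) of the 9 genes in each cochlear (blue) and vestibular (orange) library, with the tissue mean as a line. H19 is highest at means of 8.88 and 8.83, and Peg3 moves from 3.72 in the cochlea to 4.86 in the vestibule.

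Neighbours of these genes in their imprinted clusters were called in both directions. Of 44 neighbours listed, 36 were found and 23 tested, with 6 up in the vestibule and 2 up in the cochlea (34.8% called, beside 27.4% of all genes) and a median log2 fold change of 0.18. In the distal chromosome 7 cluster, where Igf2 and Cdkn1c were up in the cochlea, 2 of 7 neighbours tested were up in the vestibule, beside 15.8% of all genes. Kcnq1, a potassium channel of the cells that secrete endolymph and here also a dark cell marker, had 11.6 to 17.7 CPM in the cochlea and 46.8 to 50.6 CPM in the vestibule (log2 fold change 1.61, adjusted p = 0.000319 by edgeR's quasi-likelihood test). Cd81, a tetraspanin, followed with a log2 fold change of 0.58 (adjusted p = 0.00993). Tssc4 (0.39), Osbpl5 (0.18), Nap1l4 (-0.09), Igf2os (-0.43) and Slc22a18 (-0.62) were not called.

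Zim1, the zinc finger neighbour of Peg3 and the only one tested there, had 2.29, 2.22 and 2.50 CPM in the cochlea and 18.3, 10.3 and 6.20 CPM in the vestibule. It was up in the vestibule with Peg3 (log2 fold change 2.18, SE 0.35, adjusted p = 0.00192 by edgeR's quasi-likelihood test). Its 3 vestibular libraries stood in the same order as those of Peg3, an order also held by Igf2r, Plagl1, Grb10 and Meg3 from other clusters.

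Around Dlk1, the non-coding RNA Meg3 had 4.50, 5.83 and 28.5 CPM in cochlea 1, 2 and 3 and 105, 55.4 and 19.5 CPM in vestibule 1, 2 and 3. Cochlea 3 was above vestibule 3, and the log2 fold change of 2.08 (SE 0.75, adjusted p = 0.0711) did not pass edgeR's quasi-likelihood test. Mirg, a microRNA host of the same cluster, was called at low counts, with 0.139 to 0.992 CPM and 1.49 to 3.15 CPM (log2 fold change 1.94, adjusted p = 0.0252), but it passed the filter only through the vestibular libraries, where it was high. Begain was not called (0.56, adjusted p = 0.0753). The 2 libraries with the lowest Meg3, cochlea 1 and 2, also had the fewest counts on no gene, and the part of that share was not tested. Rtl1 was listed at 0, like Dlk1.

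In the remaining clusters, neighbours went both ways. Next to Ndn, Ube3a, a ubiquitin ligase, was up in the cochlea (log2 fold change -0.83, adjusted p = 0.00990 by edgeR's quasi-likelihood test) and Atp10a, a phospholipid flippase, up in the vestibule (1.27, adjusted p = 0.0184), whereas Magel2 (-0.84), Peg12 (-0.46) and Mkrn3 (-0.42) were not called. Next to Mest, Cep41, a protein of centrosome and cilium, was up in the vestibule, with 51.7 to 77.1 CPM in the cochlea and 139 to 170 CPM in the vestibule (log2 fold change 1.10, adjusted p = 0.00126). Next to Grb10, the actin nucleator Cobl was up in the cochlea with it, at 80.5, 116 and 153 CPM and 43.9, 41.0 and 25.5 CPM (log2 fold change -1.79, adjusted p = 0.00107). The libraries of Cobl stood in the same order as those of Grb10 in both tissues, but so did those of Igf2r and Plagl1 on other chromosomes. Ddc (-0.76), Slc22a3 (0.38) beside Igf2r and Phactr2 (0.21) beside Plagl1 were not called. With imprinted genes of other clusters added, 10 of 49 tested were up in the vestibule and 5 up in the cochlea (30.6% called, beside 27.4% of all genes), with a median of 0.18; the largest changes outside these clusters were Rasgrf1 (-3.84, past the filter only through the cochlear libraries), Nap1l5 (-1.75) and Pon3 (1.51).

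**Figure D4:**
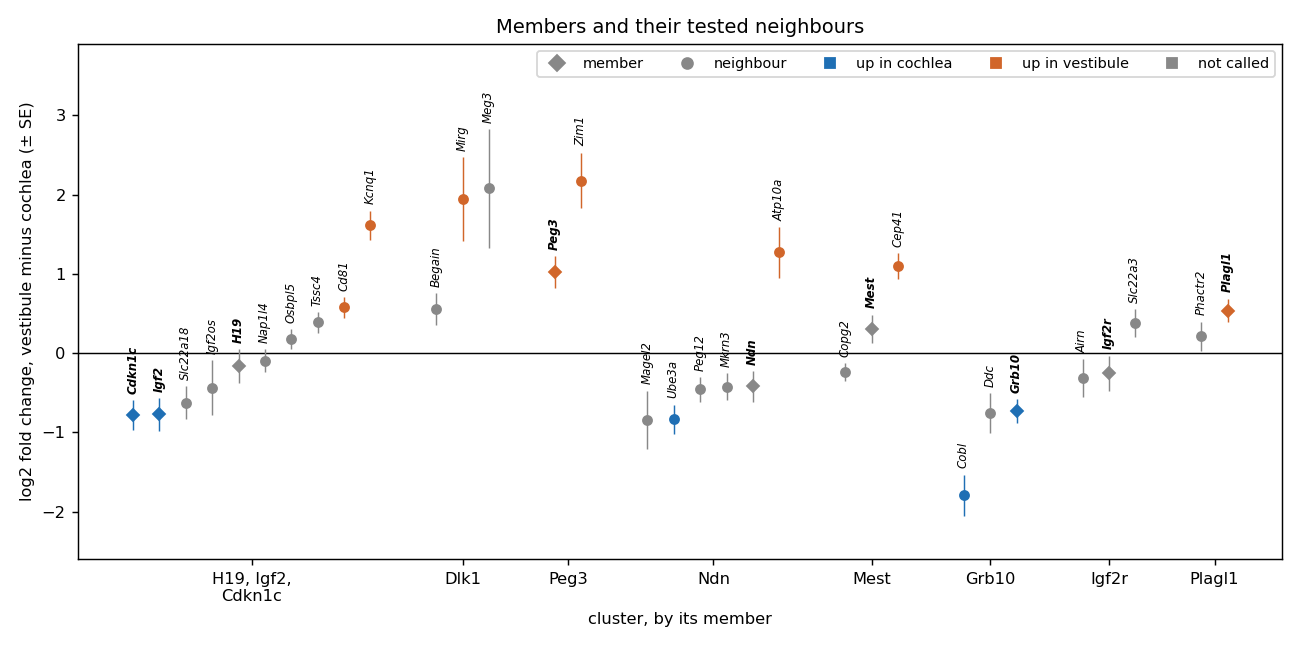
Log2 fold change with its SE (y axis) of the growth genes (diamonds) and their tested neighbours (circles), grouped along the x axis by cluster and coloured by call. Peg3 and Zim1 (1.02 and 2.18) are both above 0 and Grb10 and Cobl (-0.73 and -1.79) both below, while Igf2 and Cdkn1c lie below 0 and Kcnq1 and Cd81 above.

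The IGF pathway around Igf2 and Igf2r was called in both directions. Of 27 genes, 25 were tested, with 6 up in the vestibule, 5 up in the cochlea (beside 15.8% and 11.6% of all genes) and a median log2 fold change of -0.02, and the 11 calls dropped to 6 without vestibule 2. Igf1, the other ligand, went the same way as Igf2, with 341, 238 and 344 CPM in the cochlea and 117, 117 and 92.1 CPM in the vestibule (log2 fold change -1.62, adjusted p = 0.000133 by edgeR's quasi-likelihood test). The receptors did not pass: Igf1r had 36.0 to 83.8 and 36.1 to 58.9 CPM (log2 fold change -0.56, adjusted p = 0.192) and Insr 58.2 to 83.8 and 72.1 to 93.2 CPM (0.16, adjusted p = 0.502). Igf1, Igf1r and Insr, with the binding proteins below other than Igfbp6, were named after their values were seen.

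The binding proteins, which carry the ligands and limit their access to the receptor, were called in both directions: of the 6 tested, Igfbp2, Igfbp4 (log2 fold change 0.70), Igfbp6 and Igfbp7 (1.70) were up in the vestibule and Igfbp3 (-0.57) and Igfbp5 up in the cochlea, beside 15.8% and 11.6% of all genes. Igfbp5 had 2143 to 3216 CPM in the cochlea and 914 to 1009 CPM in the vestibule (log2 fold change -1.63, adjusted p = 0.000408 by edgeR's quasi-likelihood test). Igfbp2 had 367 to 376 and 1198 to 1324 CPM (1.63, adjusted p = 8.25e-05), and Igfbp6, which prefers IGF2, 0.736 to 1.61 and 4.40 to 6.99 CPM (2.02, adjusted p = 0.00267). Pappa2, a protease that cuts binding proteins, was up in the cochlea, with 59.4 to 95.0 and 4.36 to 12.1 CPM (-3.39, adjusted p = 0.000156), and the adaptor Irs4 was up in the vestibule at 0.0818 to 0.240 and 1.13 to 1.54 CPM (2.83, adjusted p = 0.000760). Of the 6 genes of the IGF list up in the vestibule, Irs4, Igfbp6 and Igfals passed the filter only through the vestibular libraries, where they were high. The filter thus favoured this direction for these 3, although Igfbp6 also exceeded 1 CPM in cochlea 2 and 3 (1.39 and 1.61 CPM). In the mannose 6-phosphate sorting pathway, in which Igf2r also serves, Ctsl (0.58) and Gnptg (0.49) were up in the vestibule of 14 genes tested, beside 15.8% of all genes.

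The libraries of a tissue also differed among themselves in these genes. Cochlea 3 was the highest cochlear library for 5 of the 9 genes, Igf2r, Cdkn1c, Peg3, Plagl1 and Grb10, and the lowest for Mest and Ndn. Vestibule 3 was the lowest vestibular library for 4, Igf2r, Peg3, Plagl1 and Grb10, and the highest for Cdkn1c, Mest and Ndn. Igf2r moved furthest, by 0.43 above its tissue mean in cochlea 3 and 0.41 in vestibule 1 on the log2 CPM scale.

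**Figure D5:**
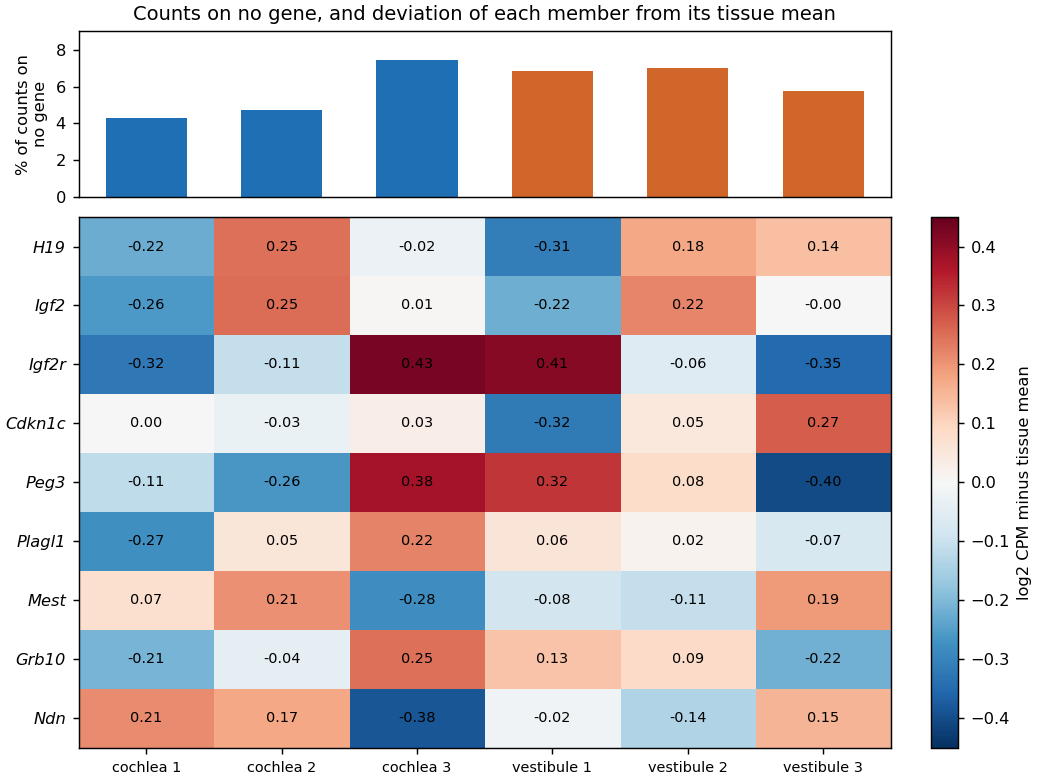
Upper bars: share of listed counts that fell on no gene, in percent, by library (blue cochlea, orange vestibule). Lower grid: log2 CPM of each gene minus the mean of its tissue, red above and blue below; Igf2r and Peg3 are highest in cochlea 3 (0.43 and 0.38) and lowest in vestibule 3 (-0.35 and -0.40) within the tissues.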

How the data were processed

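mRNA of 3 cochlear and 3 vestibular libraries was sequenced at 100 bp paired end. The authors aligned the reads to GRCm38 and deposited whole-number counts per Ensembl gene from htseq-count, without normalization. The submitters' processing notes name TopHat2 2.1.0, SAMtools 0.1.18, HTSeq 0.5.4p5 and edgeR 3.4.2; the strand setting of the counting is not given in the sources used here. The authors also deposited log2 RPKM values, which differ from log2 CPM by a constant per gene (median SD over libraries 0.000354) and so hold no TMM scaling. The 5 summary lines of each count file, 18.5% to 20.6% of listed counts, stayed out of library sizes and tests.

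CPM used the counts on genes. The test, on genes reaching 1 CPM in a minimum of 3 libraries, was that of edgeR 4.0.16 (R 4.3.3, glmQLFit, TMM, Benjamini-Hochberg, FDR 0.05, no block), which was checked on simulated counts. Ratios were compared with exact two-sided permutation tests (scipy 1.17.1). At 24464483 to 33664793 counts per library the 9 genes tested had at least 904 counts each. Intervals and limits from counts cover counting error only.

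The members and lists (29 lists, 250 of 261 genes matched) were chosen with earlier results of these data known. Genes named were the 10 members, every tested neighbour, up to 3 genes of each other list with the largest called change, markers among the 3 of their list with the highest mean CPM, for H19 and Igf2 the 3 genes most like each, and any said to be named later. Coordinates are of GENCODE vM21, which is not the release the authors counted on. For each gene tested, 16 alternatives were run: other scalings and filters, DESeq2 1.42.0, limma-voom and limma 3.58.1 on log2 RPKM, edgeR's exact test, a replicate block, and each library left out. The study's protein values were not used here.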

Additional observations from a re-analysis of the deposited data

How the results depend on the processing

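The same 5 calls were made under each of the 9 other scalings, filters and tests. Peg3 was called in 16 of 16 alternatives, Grb10 in 15, Cdkn1c in 14, Igf2 in 13, Plagl1 in 10, Ndn in 1 and H19, Igf2r and Mest in none. With 1 library left out the calls ranged from 2 to 6, those up in the vestibule from 1 to 2 and those up in the cochlea from 1 to 4. Over the same fits the calls among all genes ranged from 2267 to 4557 (main value 4036), among other imprinted genes from 10 to 17 (15) and in the IGF list from 6 to 11 (11); these fits have fewer libraries. With 1 library left out, the log2 fold change of H19 ranged from -0.29 to 0.014 (main value -0.17) and changed sign without vestibule replicate 1, the only change of sign among the 9 genes; the cause was not tested. Scaling by library size alone moved the median over all genes to 0.13 on the log2 scale, and no gene of the 9 changed direction or call.

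The replicate numbers were shared by the tissues, but same-numbered libraries did not deviate together (r of -0.18, -0.26 and -0.47). Deviations from a mean of 3 libraries must sum to 0, so these values cannot decide whether the libraries are paired. With the replicate block, 3 of the 9 genes were called, 1 up in the vestibule, Plagl1 (adjusted p = 0.0827) and Grb10 (adjusted p = 0.0511) no longer passed edgeR's test, and the calls were 2618 over all genes and 9 among other imprinted genes.

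The genes tested had at least 904 counts in each library, and other depths were not tried; Dlk1 is bounded only by its 0 counts, and 3 libraries a tissue cannot show whether a library is an outlier.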

Other observations

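Within a library, Cdkn1c counts were 3.29, 3.57 and 2.39 times those of Peg3 in cochlea 1, 2 and 3 and 0.548, 0.833 and 1.36 times in vestibule 1, 2 and 3. Plagl1 counts stood at 0.0356, 0.0313 and 0.0418 per Igf2 count in the cochlea and at 0.109, 0.0778 and 0.0854 in the vestibule. These ratios were chosen after the values had been seen, and since the 2 genes of each were called in opposite directions, they had to differ between the tissues.

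Over the 6 libraries, among 10437 genes with a mean of at least 10 CPM, the genes whose log2 CPM followed H19 most closely were ENSMUSG00000097188 (no symbol matched, Pearson r = 0.988, 25.4 to 40.0 CPM), Ube2r2 (0.982, 147 to 167 CPM) and H1fx (0.966, 16.7 to 29.9 CPM). Those closest to Igf2 were Natd1 (0.987, 68.7 to 85.0 CPM), Rtl6 (0.985, 50.1 to 75.9 CPM) and Zswim1 (0.984, 13.4 to 20.8 CPM). With 6 points that share a library with every other gene these values are a description: 11 genes exceeded r = 0.9 with H19 and 113 with Igf2.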
